A study of Mus musculus with 16 samples.

Results

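Kupffer cells are the resident macrophages of the liver, and 10 genes that mark them in mouse (Clec4f, Vsig4, Timd4, Marco, Cd5l, Adgre1, Csf1r, Cd163, Folr2 and Mrc1) were followed through the 16 liver libraries. The genes were taken by symbol, as markers of the cell type, out of 24411 genes in the files. All 10 passed the filter on low counts, which kept 12901 genes. Whole liver was sequenced as polyadenylated RNA from mice in 4 groups of 4 libraries. EtOH+MBV mice received matrix-bound nanovesicles (MBV), vesicles that lie bound in extracellular matrix, on an ethanol diet following the NIAAA scheme of chronic feeding plus binge. EtOH mice had that diet with vehicle, PF+MBV mice were pair-fed and received MBV, and PF mice were pair-fed and received vehicle. Neither the labels nor the design text gives strain, sex, age or the dose, route and timing of MBV. The labels also do not say that the libraries of a group are separate mice, so each p-value measures the spread between these libraries.

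Kupffer cells line the sinusoids, where they take bacteria, worn red cells and debris out of the portal blood. In the adult liver they depend on CSF1 receptor signalling, and they keep their identity through signals from the stellate, endothelial and parenchymal cells around them. When resident cells are lost, monocytes from the blood can enter the liver and take on part of the same programme. In alcohol-related liver disease, bacterial products from the gut reach these cells through the portal vein, and macrophages are a known source of inflammatory signals. In whole liver RNA, fewer cells of a type and less RNA of a gene per cell cannot be told apart.

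Promoters of 3 of the genes are printed because their transcripts behaved differently in what follows: Clec4f, the marker most restricted to Kupffer cells in mouse, Marco, which was higher on ethanol, and Mrc1, which was lower on ethanol. They are RefSeq sequences of build GRCm38.p6, from 250 bases before to 50 after the start, 5′ to 3′ on the gene's strand. They lie at chr6:83656067-83656366 on the minus strand for Clec4f, chr1:120504975-120505274 on the minus strand for Marco and chr2:14229164-14229463 on the plus strand for Mrc1. Capitals mark GAGGAAG, the core bound by PU.1, and TGCTGA, the core of the element bound by MAF factors. TGAGTCA, the AP-1 site, was searched for as well and stood in none of the 3. Both strands were read, so a motif on the other strand appears as its reverse complement.
Clec4f: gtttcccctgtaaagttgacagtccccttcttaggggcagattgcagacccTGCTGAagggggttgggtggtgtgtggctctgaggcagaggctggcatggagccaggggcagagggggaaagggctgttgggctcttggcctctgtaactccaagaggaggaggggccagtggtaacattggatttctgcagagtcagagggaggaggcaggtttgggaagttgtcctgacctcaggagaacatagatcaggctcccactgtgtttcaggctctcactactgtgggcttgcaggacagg
Marco: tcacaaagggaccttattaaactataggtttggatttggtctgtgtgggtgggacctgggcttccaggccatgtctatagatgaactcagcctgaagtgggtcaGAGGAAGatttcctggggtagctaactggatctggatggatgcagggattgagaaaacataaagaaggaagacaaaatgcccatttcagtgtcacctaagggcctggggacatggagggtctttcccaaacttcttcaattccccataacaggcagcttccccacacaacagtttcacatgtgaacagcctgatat
Mrc1: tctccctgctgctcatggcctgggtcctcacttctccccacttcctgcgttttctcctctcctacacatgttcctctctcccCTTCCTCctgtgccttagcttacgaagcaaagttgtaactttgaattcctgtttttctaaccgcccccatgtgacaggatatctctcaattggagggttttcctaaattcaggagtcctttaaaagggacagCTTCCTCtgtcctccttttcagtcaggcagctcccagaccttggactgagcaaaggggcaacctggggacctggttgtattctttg

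Clec4f held a single MAF core, Marco a single PU.1 core, and Mrc1 the PU.1 core at 2 places on the other strand. No motif overlapped another in these 3 windows. The table held promoters of 8 of the 10 genes, 9 promoters in all, since Folr2 has 2. Adgre1 and Csf1r were not matched. The PU.1 core stood in 3 of the 9, in the promoters of Marco, Cd5l and Mrc1, and in 13.6% of all 32851 promoters of the same length. The MAF core stood in 6 of the 9, belonging to 5 genes, and in 19.5% of all promoters. The AP-1 site stood in 1 of the 9, a promoter of Folr2, and in 5.2% of all. A match describes the letters of the window and nothing about binding.

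The 10 genes lie on 9 chromosomes, and Clec4f and Cd163 are the only pair on the same one. The gene of Clec4f spans chr6:83644542-83656187 and that of Cd163 chr6:124304656-124330527 in GRCm38, on opposite strands. Folr2, at chr7:101839988-101857194 on the minus strand, shares exon bases with Gm10602 on the plus strand. Csf1r, at chr18:61100598-61132149 on the plus strand, shares exon bases with Hmgxb3 on the minus strand. The libraries carry no strand, so reads in those shared stretches cannot be assigned to either gene. Their values therefore carry that uncertainty. The other 8 genes share no exon bases with an annotated gene.

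Levels are in CPM, counts scaled to the TMM-adjusted size of the library, with 15.3 to 20.5 M counts in genes per library. The 10 genes held between 39 counts, for Marco in PF 4, and 3368 counts, for Cd5l in EtOH 1. Their summed level was 255 to 356 CPM in EtOH+MBV, 223 to 581 CPM in EtOH, 399 to 461 CPM in PF+MBV and 392 to 495 CPM in PF libraries. Defining genes of the cell type were read in every library, with Clec4f at 69.8 CPM or more. Lymphocyte genes summed to at most 3.23 CPM and neutrophil genes to at most 12.4 CPM in any library. The general macrophage genes, 14 in number, summed to 205 to 274 CPM in EtOH+MBV, 239 to 535 CPM in EtOH, 273 to 303 CPM in PF+MBV and 263 to 349 CPM in PF.

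One library stood apart in the 10 genes. EtOH 1 had the highest level of the EtOH libraries in 9 of the 10 genes, against 32.7% of all tested genes, and the highest of all 16 libraries in 6 of the 10, against 18.3%. The exception within EtOH was Cd163, of which EtOH 1 had the lowest level of all 16. The summed level of the 10 genes was 581 CPM in EtOH 1 and 223 to 293 CPM in EtOH 2 to 4. Other macrophage genes moved with it. EtOH 1 was the highest of the 16 libraries in 11 of 14 general macrophage genes and in 8 of 11 tested genes of recruited monocytes and lipid-associated macrophages. The 15 genes of recruited cells in the files summed to 246 CPM in EtOH 1 and 62.9 to 84.3 CPM in EtOH 2 to 4. In 14 genes of liver sinusoidal endothelium and 7 of hepatocytes EtOH 1 was never the highest. Not every list did so. The other genes of Kupffer cell identity summed to 421 CPM in EtOH 1, the lowest of the 16 libraries, and 509 to 535 CPM in EtOH 2 to 4, with 5 of 16 tested genes highest in EtOH 1. Stellate cell genes summed to 364 CPM in EtOH 1, the highest of the 16, and 219.7 to 286 CPM in EtOH 2 to 4. Over all tested genes EtOH+MBV 1 also lay apart from its group. On the axis of largest variation (first principal component, 49.8% of the variance of log2 CPM) it stood at 0.254. EtOH+MBV 2 to 4 stood between -49.6 and -41.2 there, and the pair-fed libraries between 32.9 and 48.4. In the sum of the 10 genes EtOH+MBV 1, at 307 CPM, lay within its group. For the 10 genes, EtOH against PF and EtOH+MBV against EtOH are also given without EtOH 1, a choice made after seeing the data. The interaction is given so for Cd163, Marco and Adgre1.

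**Figure D1:**
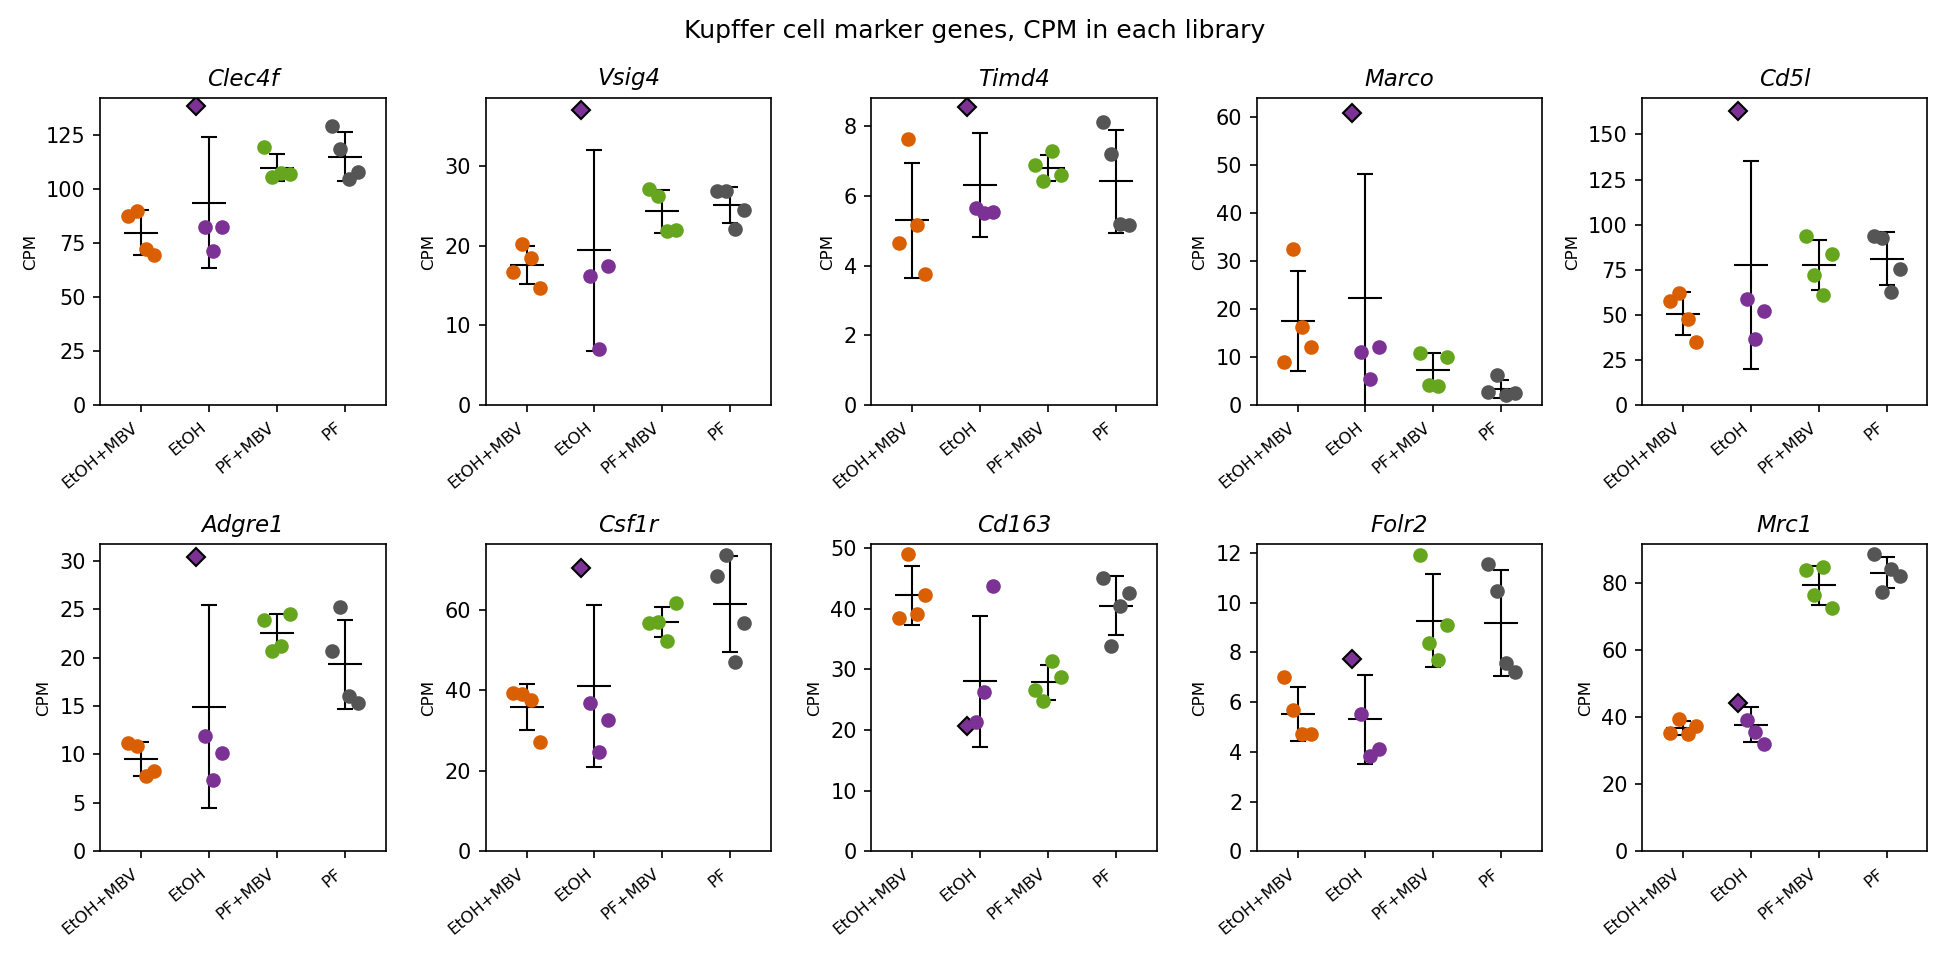
Level of each of the 10 Kupffer cell marker genes in CPM (vertical axes, linear from 0) in the 4 libraries of each group, with the mean and SD as bars. The outlined diamond is EtOH 1, and a lower SD bar that passes below 0 is cut at the axis. EtOH 1 lies above the other EtOH libraries in every panel except Cd163, and the ethanol and pair-fed groups lie apart most widely for Mrc1.

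Per kilobase of exon, the order of the 10 genes can be read within a group. In PF libraries Clec4f stood at 46.6 ± 4.55 CPM per kb (SD, n = 4) and Cd5l at 39.9 ± 7.30, and these neighbours lay within their spread. Vsig4 followed at 16.9 ± 1.53 CPM per kb, Mrc1 at 13.1 ± 0.740 and Csf1r at 10.7 ± 2.06. Cd163 stood at 7.42 ± 0.880 CPM per kb, while Adgre1 at 5.96 ± 1.42 and Folr2 at 5.95 ± 1.38 were level with each other. Timd4, with 2.95 ± 0.685 CPM per kb, and Marco, with 1.73 ± 0.999, were the lowest and overlapped. Clec4f and Cd5l led in all 4 groups. The order below them differed. Marco was in place 4 in EtOH+MBV, at 9.06 ± 5.43 CPM per kb, and in EtOH, at 11.6 ± 13.4, against place 9 in PF+MBV, at 3.77 ± 1.89, and place 10 in PF. Mrc1 was in place 7 in EtOH+MBV, at 5.78 ± 0.320 CPM per kb, and place 6 in EtOH, at 5.93 ± 0.813, against place 4 in PF+MBV and PF.

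Ethanol against pair feeding, both with vehicle, asks how the diet changes these genes. Marco was higher in EtOH than in PF livers, and Mrc1, Folr2 and Cd163 were lower, so 4 of the 10 genes passed the threshold of adjusted p 0.05 (edgeR's quasi-likelihood test, Benjamini-Hochberg adjustment over 12901 genes). Of all tested genes 39.8% passed in this comparison, 20.4% higher and 19.5% lower, and the share of the 10 genes was close to that. The median log2 fold change of the 10 genes was -0.36, and that of all tested genes was 0.01. Without EtOH 1 the count was 8 of 10, 7 lower and Marco higher, against 38.1% of genes in that fit, 19.1% lower and 19.0% higher. EtOH 1 was set apart after seeing the data, as the highest EtOH library in 9 of these same 10 genes. Leaving it out lowers the EtOH mean of those 9, while the share of all genes was not selected so. The count and the share are therefore not a like comparison.

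Mrc1, the mannose receptor CD206 that takes up mannose-bearing glycoproteins, gave the clearest difference. It had 44.2, 39.2, 35.5 and 32.1 CPM in EtOH libraries 1 to 4, against 88.7, 77.4, 84.2 and 82.2 CPM in PF libraries. No EtOH library came near the lowest PF one. The log2 fold change was -1.14 ± 0.10 (SE), 2.20-fold lower in EtOH, with an edgeR adjusted p of 1.1e-06. Mrc1 was the only one of the 10 genes whose groups did not overlap, which held for 32.3% of all tested genes. In liver, Mrc1 is made by sinusoidal endothelial cells as well as by Kupffer cells. Of 14 endothelial genes 10 were lower in EtOH, with and without EtOH 1, against 19.5% and 19.1% of all tested genes. Among them were Kdr, a VEGF receptor, lower by 1.61 ± 0.12 on the log2 scale, and Ehd3, a membrane trafficking protein, by 1.66 ± 0.10. Lyve1, a hyaluronan receptor of the same cells, was higher by 1.85 ± 0.22. The part of endothelial cells in the Mrc1 difference was not tested.

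Folr2, the beta folate receptor of resident macrophages, had 7.74, 5.53, 3.83 and 4.13 CPM in EtOH livers, against 11.6, 10.5, 7.58 and 7.21 CPM in PF livers. Only EtOH 1 reached into the PF range. The log2 fold change was -0.78 ± 0.23, 1.72-fold lower in EtOH, with adjusted p 0.0138 in the edgeR fit. Across the fits that left out 1 library the log2 value ran between -1.03 and -0.66, and every one of them passed.

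Cd163, the scavenger receptor for haemoglobin bound to haptoglobin, had 20.6, 21.3, 26.3 and 43.8 CPM in EtOH livers, against 45.1, 33.9, 40.4 and 42.6 CPM in PF livers. EtOH 4 lay inside the PF range and the other 3 lay below it. The log2 fold change was -0.53 ± 0.19, 1.45-fold lower in EtOH, with adjusted p 0.0332 in the edgeR fit. That call rested on few libraries. It ended, with adjusted p up to 0.10, without EtOH 1, 2 or 3 or PF 1, 3 or 4, and at 0.0962 in a fit of these 2 groups alone.

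Marco, a collagen-like scavenger receptor that binds bacteria, was the gene that went the other way. It had 60.7, 11.0, 5.37 and 12.1 CPM in EtOH livers, against 2.63, 6.20, 2.09 and 2.42 CPM in PF livers. EtOH 1 stood far above the rest, EtOH 2 and 4 stood above all PF libraries, and EtOH 3 lay inside the PF range. The log2 fold change was 2.76 ± 0.68, 6.78-fold higher in EtOH, with adjusted p 0.00443. Without EtOH 1 it was 1.52 ± 0.50 with adjusted p 0.0239, so the direction held and the size was smaller.

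The other 6 genes did not pass in the fit of all libraries. Clec4f, a lectin for galactose-bearing sugars, had 139, 82.7, 71.2 and 82.7 CPM in EtOH, against 129.6, 119, 105 and 108 CPM in PF, a log2 fold change of -0.30 ± 0.16 with adjusted p 0.162. Vsig4, a complement receptor for C3 fragments, had 37.1, 16.2, 6.98 and 17.5 CPM in EtOH, against 26.9, 26.9, 22.2 and 24.5 CPM in PF, at -0.36 ± 0.31 and adjusted p 0.363. Adgre1, which encodes the F4/80 antigen, had 30.4, 11.9, 7.32 and 10.1 CPM in EtOH, against 20.7, 25.2, 16.1 and 15.3 CPM in PF, at -0.36 ± 0.32 and adjusted p 0.386. In all 3 genes EtOH 1 was above every PF library and EtOH 2 to 4 were below every PF library.

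Csf1r, the receptor for CSF1 and IL-34 on which these cells depend, had 70.3, 36.8, 24.7 and 32.6 CPM in EtOH, against 68.4, 73.7, 47.1 and 56.8 CPM in PF. Its log2 fold change was -0.58 ± 0.24 with adjusted p 0.0648. Cd5l, a secreted scavenger receptor-like protein of tissue macrophages, had 163, 58.7, 36.5 and 51.9 CPM in EtOH, against 93.6, 92.8, 62.7 and 75.6 CPM in PF, at -0.06 ± 0.34 and adjusted p 0.900. These 2 genes had the same shape, with EtOH 1 high or highest and EtOH 2 to 4 below every PF library. Timd4, a phosphatidylserine receptor for dead cells that marks Kupffer cells of embryonic origin, had 8.57, 5.64, 5.50 and 5.55 CPM in EtOH, against 8.13, 7.20, 5.18 and 5.16 CPM in PF. Its log2 fold change was -0.02 ± 0.22, with an interval of -0.48 to 0.44 at 95% and adjusted p 0.961.

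The fit without EtOH 1 separated the 10 genes further. Csf1r was then at a log2 fold change of -0.97 ± 0.17 with adjusted p 0.00038, Adgre1 at -0.98 ± 0.20 with 0.00115, and Clec4f at -0.55 ± 0.11 with 0.00122. Vsig4 was at -0.89 ± 0.22 with adjusted p 0.0053 and Cd5l at -0.72 ± 0.21 with 0.0126. Folr2 and Mrc1 stayed past the threshold, at -1.03 ± 0.22 and -1.22 ± 0.09. Cd163, at -0.41 ± 0.19 with adjusted p 0.0946, and Timd4, at -0.20 ± 0.21 with 0.481, did not pass. EtOH 2 to 4 lay below every PF library in 7 of the 10 genes, as they did in 20.1% of all tested genes. The other 3 were Timd4, Marco and Cd163. EtOH 1 had been set apart for its levels of these genes, so that share is not a like comparison either.

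**Figure D2:**
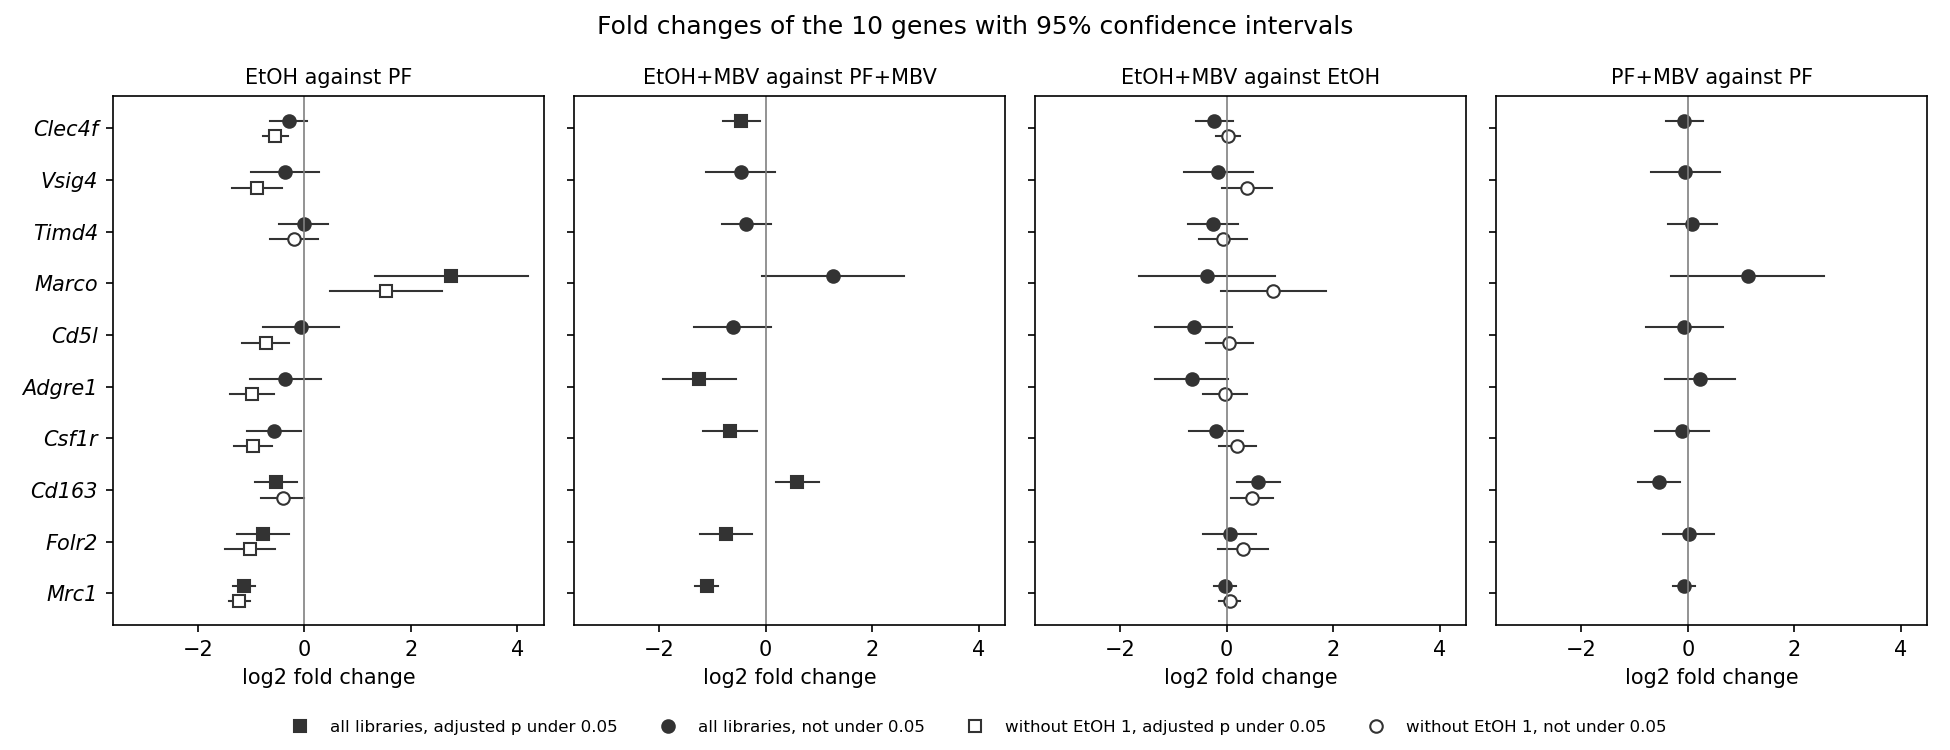
Log2 fold change of each of the 10 genes with its 95% confidence interval (horizontal axes) in the 4 comparisons, from the fit of all 16 libraries (filled) and, in the EtOH against PF and EtOH+MBV against EtOH panels, without EtOH 1 (open). Squares mark an adjusted p under 0.05. In EtOH against PF 4 genes have filled squares and 8 have open ones, in EtOH+MBV against PF+MBV 6 have filled squares, and neither panel of MBV against vehicle has a square.

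The same diets with MBV, EtOH+MBV against PF+MBV, gave the ethanol difference in libraries that the first comparison did not use. Clec4f, Adgre1, Csf1r, Folr2 and Mrc1 were lower in EtOH+MBV, and Cd163 was higher. These 6 of 10 genes stand against 35.9% of all tested genes that passed in this comparison, 16.7% lower and 19.2% higher. The groups did not overlap in 7 of the 10 genes, 6 lower and 1 higher, against 39.0% of all tested genes, 19.9% lower and 19.2% higher. The median log2 fold change of the 10 genes was -0.54, and that of all tested genes was -0.01.

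Mrc1 had 35.4, 39.4, 35.1 and 37.5 CPM in EtOH+MBV libraries 1 to 4, against 83.8, 76.5, 84.6 and 72.5 CPM in PF+MBV libraries. Its log2 fold change was -1.11 ± 0.10 with an edgeR adjusted p of 4.1e-06. The levels on each diet were thus nearly those of the vehicle groups. Of the 14 endothelial genes 7 were lower here, against 16.7% of all tested genes, and Lyve1 was higher, by 1.79 ± 0.22 on the log2 scale.

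Adgre1 had 11.2, 10.8, 7.77 and 8.29 CPM in EtOH+MBV, against 23.9, 20.7, 21.2 and 24.5 CPM in PF+MBV. All EtOH+MBV libraries were below all PF+MBV ones, with a log2 fold change of -1.24 ± 0.32, 2.37-fold lower, and adjusted p 0.0075. Leaving out any 1 library kept Adgre1 and Mrc1 past the threshold.

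Clec4f had 87.8, 89.9, 72.5 and 69.8 CPM in EtOH+MBV, against 119.5, 106, 108 and 107 CPM in PF+MBV, a log2 fold change of -0.46 ± 0.16 with adjusted p 0.0380. Csf1r had 39.3, 39.2, 37.7 and 27.2 CPM in EtOH+MBV, against 56.7, 57.0, 52.4 and 61.6 CPM in PF+MBV, at -0.67 ± 0.24 and adjusted p 0.0394. Folr2 had 7.02, 5.69, 4.71 and 4.71 CPM in EtOH+MBV, against 11.9, 8.38, 7.70 and 9.11 CPM in PF+MBV, at -0.74 ± 0.23 and adjusted p 0.0202. The groups did not overlap in any of these 3 genes. Their calls lay near the threshold. The Clec4f call ended without EtOH+MBV 3 or 4 or any PF+MBV library, with adjusted p up to 0.110. The Csf1r call ended without EtOH+MBV 2, 3 or 4 or any PF+MBV library, up to 0.120, and the Folr2 call without EtOH+MBV 3 or 4 or PF+MBV 1, up to 0.0738.

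Cd163 was higher here, at 38.4, 49.0, 39.1 and 42.2 CPM in EtOH+MBV, against 26.5, 24.8, 31.4 and 28.7 CPM in PF+MBV. Every EtOH+MBV library was above every PF+MBV library. The log2 fold change was 0.60 ± 0.19, 1.51-fold higher, with adjusted p 0.0214, and the call ended without EtOH+MBV 2 or PF+MBV 1 or 2, with adjusted p up to 0.0646. Between the vehicle groups the same gene had been lower on ethanol.

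Vsig4 had 16.7, 20.3, 18.5 and 14.8 CPM in EtOH+MBV, against 27.2, 26.2, 21.9 and 22.1 CPM in PF+MBV, at -0.47 ± 0.31 on the log2 scale and adjusted p 0.245. Its groups did not overlap, and it did not pass. Timd4 had 4.66, 7.63, 5.16 and 3.77 CPM in EtOH+MBV, against 6.88, 6.44, 7.29 and 6.59 CPM in PF+MBV, at -0.36 ± 0.22 and adjusted p 0.210. Cd5l had 57.5, 62.0, 47.7 and 34.9 CPM in EtOH+MBV, against 93.6, 72.2, 61.1 and 83.6 CPM in PF+MBV, at -0.62 ± 0.34 and adjusted p 0.168. Marco had 8.94, 32.5, 16.2 and 12.1 CPM in EtOH+MBV, against 10.8, 4.16, 4.06 and 10.0 CPM in PF+MBV, at 1.27 ± 0.63 and adjusted p 0.128. In Timd4, Cd5l and Marco the groups overlapped. A fit without EtOH 1, chosen after seeing the data, estimated the shared spread from the other 15 libraries and called 8 of the 10 genes. Marco, higher at 1.28, and Cd5l, lower at -0.61, were added, with adjusted p 0.0266 and 0.0176, against 42.4% of all genes.

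**Figure D3:**
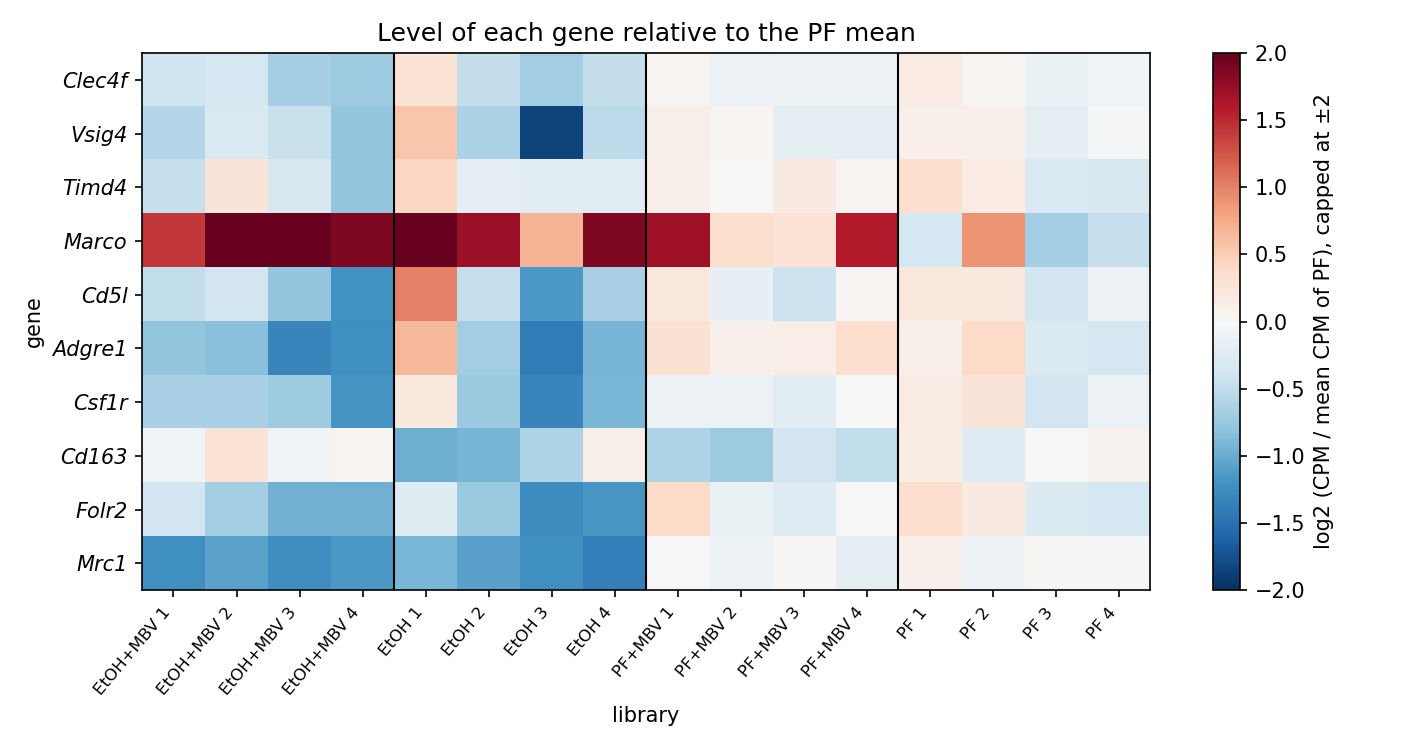
Log2 level of the 10 genes (rows) in each of the 16 libraries (columns, by group) as the difference to the gene's PF mean, on a colour scale capped at 2 in each direction. Mrc1 is low in all 8 libraries of the ethanol diet, EtOH 1 differs from the other EtOH columns in most rows, and Marco is above the PF mean in all 12 libraries outside PF.

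MBV in ethanol-fed livers, EtOH+MBV against EtOH, moved none of the 10 genes past the threshold in the edgeR fit, and 1 of them, Cd163, had an unadjusted p under 0.05. Of all tested genes 2.69% passed, and 21.1% had an unadjusted p under 0.05. None of the 10 passed with DESeq2 or limma voom. Cd163 averaged 42.2 ± 4.85 CPM in EtOH+MBV and 28.0 ± 10.8 CPM in EtOH (SD, n = 4 each), a log2 difference of 0.59 ± 0.19 with adjusted p 0.0923. EtOH 4, at 43.8 CPM, was the only EtOH library within the EtOH+MBV range. Without EtOH 4 the difference was 0.89 with adjusted p 0.00275, and without EtOH 1 it was 0.48 with 0.224.

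Mrc1 averaged 36.9 ± 2.04 CPM in EtOH+MBV and 37.8 ± 5.18 CPM in EtOH, a log2 difference of -0.04 ± 0.10 with a 95% interval of -0.24 to 0.17. That interval does not reach the size of the ethanol difference, -1.14. Marco averaged 17.4 ± 10.5 CPM in EtOH+MBV and 22.3 ± 25.8 CPM in EtOH, at -0.37 ± 0.61. Adgre1 averaged 9.52 ± 1.74 CPM in EtOH+MBV and 14.9 ± 10.5 CPM in EtOH, at -0.66 ± 0.32 with adjusted p 0.255. Cd5l averaged 50.5 ± 12.0 CPM in EtOH+MBV and 77.5 ± 57.7 CPM in EtOH, at -0.62 ± 0.34 with adjusted p 0.313. In these 3 genes EtOH 1 was the highest EtOH library, and without it the log2 differences were 0.88 for Marco, -0.03 for Adgre1 and 0.05 for Cd5l. Clec4f, Vsig4, Timd4, Csf1r and Folr2 had log2 differences between -0.26 and 0.05 in the fit of all libraries. Without EtOH 1 the values were 0.03 for Clec4f, 0.38 for Vsig4, -0.06 for Timd4, 0.20 for Csf1r and 0.31 for Folr2. Mrc1 was then at 0.06, and none of the 10 passed. The groups overlapped in all 10 genes, while they did not in 7.60% of all tested genes.

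MBV in pair-fed livers, PF+MBV against PF, also moved none of the 10 genes past the threshold in the edgeR fit, and Cd163 alone had an unadjusted p under 0.05. Of all tested genes 1.78% passed, and 16.9% had an unadjusted p under 0.05. Neither DESeq2 nor limma voom called any of the 10. Cd163 averaged 27.9 ± 2.84 CPM in PF+MBV and 40.5 ± 4.81 CPM in PF, a log2 difference of -0.54 ± 0.19 with unadjusted p 0.0111 and adjusted p 0.148. All PF+MBV libraries were below all PF libraries, which held for 1 of the 10 genes, against 7.26% of all tested genes. In a fit of these 2 groups alone Cd163 passed, with adjusted p 0.0128.

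Marco averaged 7.25 ± 3.64 CPM in PF+MBV and 3.34 ± 1.92 CPM in PF, at 1.12 ± 0.68 on the log2 scale and adjusted p 0.440. PF+MBV 1 and 4 stood above all PF libraries and the other 2 did not. The other 8 genes had log2 differences between -0.11 and 0.23. Mrc1 averaged 79.4 ± 5.85 CPM in PF+MBV and 83.1 ± 4.71 CPM in PF, and Clec4f averaged 110.0 ± 6.35 CPM in PF+MBV and 115 ± 11.3 CPM in PF.

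The interaction asks whether the MBV difference on ethanol is unlike that on the pair-fed diet. Cd163 passed, with an MBV difference of 0.59 on ethanol, against -0.54 on the pair-fed diet. The interaction was 1.13 ± 0.27 on the log2 scale, with adjusted p 0.0298 in the edgeR fit. It was the only one of the 10 genes to pass, where 4.11% of all tested genes did, 2.02% in its direction. Every setting tried kept the direction, and leaving out 1 library gave 1.02 to 1.43. The call ended, with adjusted p between 0.0519 and 0.0648, on leaving out any of 9 of the 16 libraries: EtOH 2, EtOH+MBV 2 or 3, PF+MBV 1, 2 or 4, or PF 1, 3 or 4. Without EtOH 1 it was 1.02 with adjusted p 0.0384. Marco had an interaction of -1.49 ± 0.91 with adjusted p 0.338 and Adgre1 one of -0.88 ± 0.45 with 0.248, and without EtOH 1 these were -0.25 and -0.26. These 4 comparisons share libraries: EtOH is in 2 of them, and so are EtOH+MBV, PF+MBV and PF.

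Set against Clec4f in the same library, Cd163, Mrc1, Marco and Adgre1 stood at different ratios in some groups. Vsig4, Cd5l and Timd4 stood at similar ones, and Folr2 and Csf1r had lower means on ethanol. Cd163 stood at 53.2 ± 6.96 counts per 100 Clec4f counts in EtOH+MBV, 32.6 ± 16.3 in EtOH, 25.4 ± 3.18 in PF+MBV and 35.4 ± 4.94 in PF (SD, n = 4). All EtOH+MBV libraries, from 43.7 to 60.5, lay above all PF+MBV and PF libraries, and EtOH reached from 14.9 to 52.9. Mrc1 stood at 46.6 ± 5.81 per 100 Clec4f counts in EtOH+MBV, 42.0 ± 8.24 in EtOH, 72.2 ± 4.67 in PF+MBV and 72.6 ± 6.94 in PF, with no overlap between the diets. Marco stood at 21.5 ± 11.0 in EtOH+MBV, 19.8 ± 16.3 in EtOH, 6.52 ± 3.08 in PF+MBV and 2.88 ± 1.57 in PF. Timd4 was at 6.58 ± 1.52 in EtOH+MBV, 6.86 ± 0.644 in EtOH, 6.19 ± 0.423 in PF+MBV and 5.52 ± 0.765 in PF, and its groups overlapped. Vsig4 was at 22.1 ± 2.74 in EtOH+MBV, 19.3 ± 7.05 in EtOH, 22.1 ± 2.06 in PF+MBV and 21.8 ± 0.991 in PF. Cd5l was at 62.6 ± 8.51 in EtOH+MBV, 75.7 ± 29.1 in EtOH, 70.3 ± 10.2 in PF+MBV and 70.1 ± 7.66 in PF. Adgre1 was at 11.9 ± 0.841 in EtOH+MBV, 14.7 ± 5.10 in EtOH, 20.5 ± 1.57 in PF+MBV and 16.7 ± 3.14 in PF. Its EtOH+MBV libraries, from 10.7 to 12.7, lay below all PF+MBV and PF libraries, and EtOH reached from 10.3 to 21.9. Folr2 was at 6.90 ± 0.753 in EtOH+MBV, 5.66 ± 0.728 in EtOH, 8.39 ± 1.20 in PF+MBV and 7.91 ± 1.13 in PF. Csf1r was at 44.8 ± 5.40 in EtOH+MBV, 42.3 ± 6.87 in EtOH, 51.9 ± 4.71 in PF+MBV and 53.2 ± 7.01 in PF. For both genes EtOH overlapped PF, and EtOH+MBV overlapped PF+MBV. Mrc1 and Marco thus changed against Clec4f as well as against the whole library, and so did Adgre1 between EtOH+MBV and PF+MBV. In EtOH 1 the ratio to Clec4f was the lowest of its group for Cd163 and Mrc1 and the highest for Marco. The ratios are a description and were not tested.

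**Figure D4:**
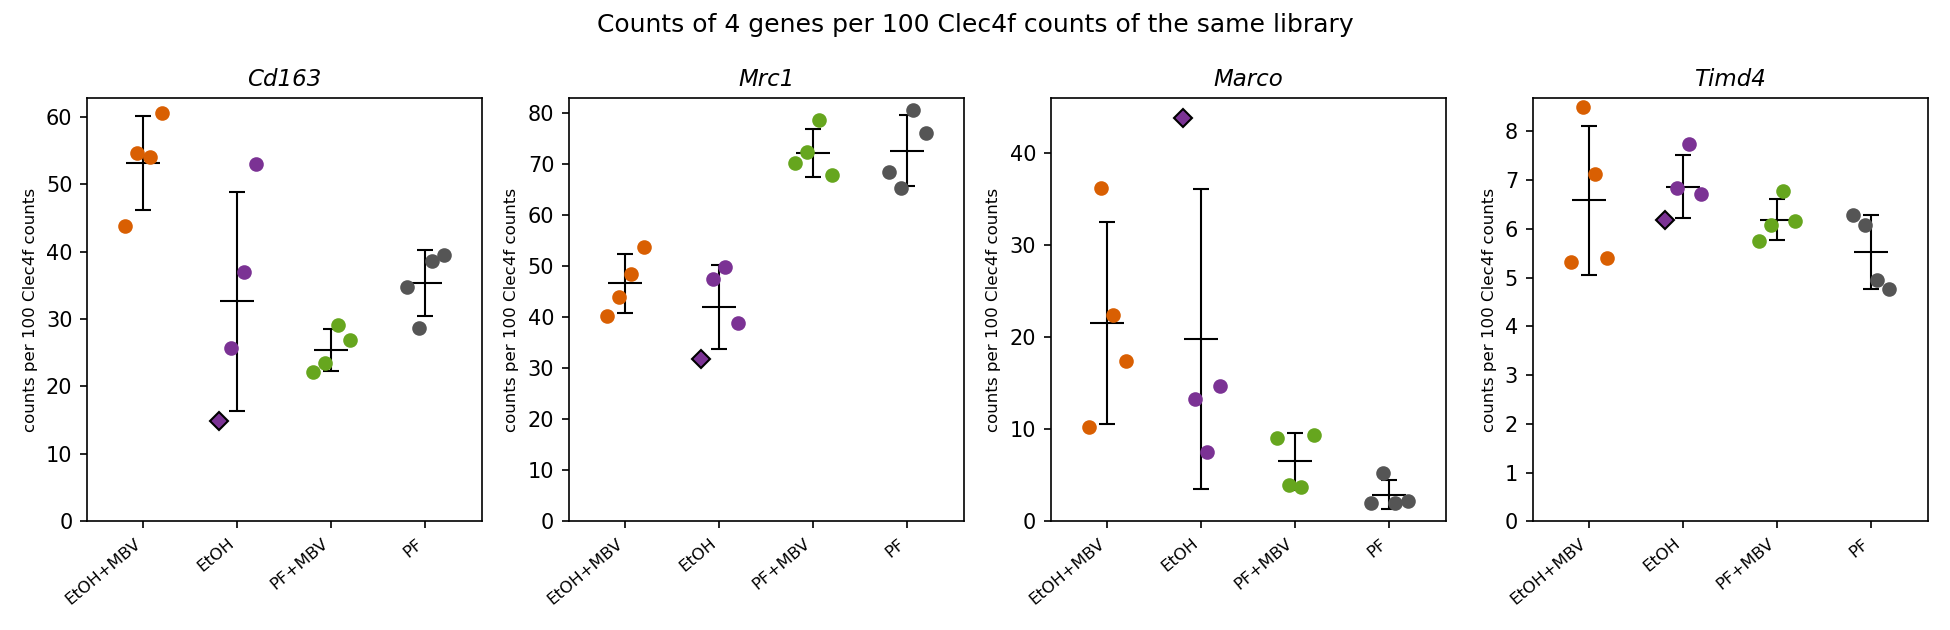
Counts of Cd163, Mrc1, Marco and Timd4 per 100 Clec4f counts of the same library (vertical axes, linear from 0), with mean and SD of each group and EtOH 1 as an outlined diamond. Mrc1 is lower in both ethanol groups than in both pair-fed groups, Cd163 is highest in EtOH+MBV, and the Timd4 groups overlap.

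Clec4f was compared with every tested gene that has an official symbol, 12288 genes, by the root-mean-square difference between z-scaled log2 CPM profiles over the 16 libraries. Of the other markers Adgre1 was nearest at 0.308, then Csf1r at 0.326, Cd5l at 0.353, Folr2 at 0.477 and Vsig4 at 0.535. Timd4 stood at 0.682 and Mrc1 at 0.685, and Marco at 1.45 and Cd163 at 1.51 were the most unlike. Outside the 10 genes the 5 nearest were Mpeg1, which encodes the macrophage pore-forming protein perforin-2, at 0.264, Tmsb4x, a thymosin that binds actin, at 0.362, Fyb, an adaptor of immune cells, at 0.368, Dkc1, the pseudouridine synthase dyskerin, at 0.369, and Itgal, an integrin of leukocytes, at 0.396. Mpeg1 averaged 34.5 ± 6.33 CPM in EtOH+MBV, 50.7 ± 37.2 in EtOH, 74.2 ± 2.89 in PF+MBV and 76.7 ± 15.6 in PF. These values describe profiles over shared libraries, and EtOH 1 weighs in each of them.

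Other genes of Kupffer cell identity gave a mixed picture. Of 17 such genes 16 were tested, and in EtOH against PF 2 were higher and 5 lower. These 7 of 16 stand against 39.8% of all tested genes, 20.4% higher and 19.5% lower, a share near theirs. C6, a complement component made by Kupffer cells and hepatocytes, averaged 39.6 ± 5.62 CPM in EtOH and 348 ± 86.3 CPM in PF, with a log2 fold change of -3.14 ± 0.26 and adjusted p 8.56e-07. Nr1h3, the liver X receptor that mouse Kupffer cells need to keep their identity and that hepatocytes express too, averaged 48.4 ± 2.97 CPM in EtOH and 90.4 ± 3.03 CPM in PF, at -0.90 ± 0.10 and adjusted p 6.12e-06. Both fell without overlap between the groups. Cdh5, a cadherin found on mouse Kupffer cells and on all endothelium, averaged 63.7 ± 11.4 CPM in EtOH and 32.7 ± 6.98 CPM in PF, at 0.96 ± 0.15 and adjusted p 0.00012. The transcription factor Maf was lower and Irf8 was higher, though Irf8 was not called without EtOH 1 (adjusted p 0.163), while Spi1, which encodes PU.1, and Spic were not called. The median log2 fold change of the 16 genes was -0.29, against 0.01 for all tested genes.

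In EtOH+MBV against PF+MBV, 3 of the 16 identity genes were higher and 4 lower, where 19.2% of all tested genes were higher and 16.7% lower. C6 averaged 65.6 ± 28.6 CPM in EtOH+MBV and 233 ± 51.2 CPM in PF+MBV, at -1.83 ± 0.25 on the log2 scale and adjusted p 8.29e-05. Hmox1, haem oxygenase, which breaks down the haem that Cd163 brings in, averaged 76.4 ± 54.5 CPM in EtOH+MBV and 16.9 ± 0.989 CPM in PF+MBV, at 2.18 ± 0.42 and adjusted p 0.000957. Its EtOH+MBV libraries ran from 19.2 CPM, in EtOH+MBV 1, to 145.5 CPM, and the highest PF+MBV library held 17.8 CPM. MBV on ethanol, EtOH+MBV against EtOH, gave 2 higher and none lower: Nr1h3, at 66.3 ± 9.85 CPM in EtOH+MBV and 48.4 ± 2.97 CPM in EtOH, and Maf, at 35.1 ± 2.49 CPM in EtOH+MBV and 19.1 ± 7.14 CPM in EtOH. Their log2 fold changes were 0.46 ± 0.10 and 0.88 ± 0.22, with adjusted p 0.0273 and 0.0423, where 2.69% of all tested genes passed. Both calls ended in a fit of these 2 groups alone, in which edgeR called 0 of 12325 genes (1679 at an unadjusted p under 0.05), with adjusted p 0.24 for Nr1h3 and 0.252 for Maf. Without EtOH 1 Nr1h3 did not pass (adjusted p 0.062) and Maf did (0.0417). None of the 16 passed in PF+MBV against PF. C6 passed in the interaction, at 1.31 ± 0.35 and adjusted p 0.0435, and without EtOH 1 it lay just above the threshold, at 1.33. Beside Cd163 it was the only gene of either list to do so. C6 ran from 46.6 to 108 CPM in EtOH+MBV, highest in EtOH+MBV 1, and from 34.2 to 47.1 CPM in EtOH. Its interaction without EtOH+MBV 1 is not given.

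Signals that reach Kupffer cells and ligands of the 10 receptors made up a list of 12, all tested. In EtOH against PF 5 were higher and 1 was lower, where 20.4% of all tested genes were higher and 19.5% lower. Csf1, a ligand of Csf1r, averaged 16.7 ± 3.87 CPM in EtOH and 9.83 ± 1.26 CPM in PF, at 0.77 ± 0.19 on the log2 scale and adjusted p 0.00419, while Il34, the other ligand, was at -0.18 ± 0.29 with adjusted p 0.642. Csf1 was thus higher on ethanol where its receptor was not. Icam1, an adhesion protein, averaged 21.6 ± 6.35 CPM in EtOH and 7.24 ± 0.884 CPM in PF, at 1.58 ± 0.21 and adjusted p 4.36e-05. C3, whose fragments bind Vsig4, was higher by 0.75 ± 0.18 with adjusted p 0.00329, and Tgfb1, the TGF-beta ligand, by 0.69 ± 0.15 with 0.00155. Vcam1, another adhesion protein, was higher by 0.83 ± 0.24 with 0.0107. Dll4, the Notch ligand through which sinusoidal endothelium instructs Kupffer cells, averaged 2.72 ± 0.775 CPM in EtOH and 5.28 ± 0.918 CPM in PF, at -0.97 ± 0.23 and adjusted p 0.00316. Bmp10 and Gdf2, ligands of the ALK1 receptor, were not called, nor were Hp and Hpx.

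In EtOH+MBV against PF+MBV 5 of the 12 were higher and none was lower, where 19.2% of all tested genes were higher and 16.7% lower. Csf1 averaged 13.7 ± 3.56 CPM in EtOH+MBV and 7.80 ± 0.975 CPM in PF+MBV, at 0.81 ± 0.19 and adjusted p 0.0037, and C3 was higher by 1.22 ± 0.18 with adjusted p 0.000139. Hp, haptoglobin, which carries haemoglobin to Cd163, was higher by 1.57 ± 0.38 with adjusted p 0.00466, and Hpx, haemopexin, which carries haem, by 0.71 ± 0.22 with 0.02. Cd163 and haptoglobin were thus both higher in EtOH+MBV than in PF+MBV livers. Between the vehicle groups Hp was not called, at 4821 ± 3232 CPM in EtOH and 3242 ± 911 CPM in PF, and Cd163 was lower. A link between these genes was not tested. None of the 12 passed in either MBV comparison or in the interaction. Hp is made mostly by hepatocytes, and Fgb, a hepatocyte fibrinogen chain, was higher in this comparison as well, by 1.84 ± 0.34 with adjusted p 0.000838.

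Macrophage genes that are not particular to Kupffer cells stood beside these, with the same 20.4% higher and 19.5% lower of all tested genes in EtOH against PF as background. In EtOH against PF 1 of 14 general macrophage genes was higher, Cd68, a lysosomal glycoprotein, at 0.71 ± 0.26 with adjusted p 0.04 (0.23 without EtOH 1), and 1 was lower, Cd74, the MHC class II invariant chain, at -0.63 ± 0.18 with 0.011. Of 15 genes of recruited monocytes and lipid-associated macrophages 11 were tested, with 6 higher and 2 lower. Cd9, a tetraspanin of lipid-associated macrophages, averaged 28.5 ± 9.83 CPM in EtOH and 9.53 ± 1.64 CPM in PF, at 1.58 ± 0.21 with adjusted p 2.92e-05. Mmp12, macrophage elastase, was at 4.08 ± 0.81 with adjusted p 0.00102, and averaged 10.0 ± 14.3 CPM in EtOH and 0.599 ± 0.471 CPM in PF. EtOH 1 held 31.4 CPM of it and EtOH 2 to 4 held 1.68 to 4.71 CPM, and without EtOH 1 the log2 fold change was 2.27 with adjusted p 0.00105. Ccr2, the receptor by which monocytes leave the marrow, was lower, at 0.429 ± 0.0780 CPM in EtOH and 1.74 ± 0.601 CPM in PF, with a log2 fold change of -2.01 ± 0.31 and adjusted p 0.000131. The Ccr2 values rest on only 6 to 9 counts in EtOH libraries and 18 to 40 in PF libraries. Ly6c2, Chil3, Clec4e and F13a1 did not pass the filter on low counts. The median log2 fold change of the 11 tested genes was 1.00 in EtOH against PF. In EtOH+MBV against PF+MBV it was -0.94, with 2 of the 11 higher and 4 lower. Of all tested genes 19.2% were higher and 16.7% lower in that comparison. With EtOH 1 left out of the fit, 2 were higher and 7 lower there, where 42.4% of all genes passed. Of the 14 general macrophage genes 1 was higher and 3 were lower in EtOH+MBV against PF+MBV, against the same 19.2% and 16.7%. In that comparison 13 of them had a negative log2 fold change, with a median of -0.30, against 0.18 in EtOH against PF. The fit without EtOH 1 gave 1 higher and 5 lower in EtOH+MBV against PF+MBV. In EtOH+MBV against EtOH, Mmp12 and Plac8 were lower, at -4.62 ± 0.86 with adjusted p 0.0201 and -0.91 ± 0.20 with 0.031. Without EtOH 1 Mmp12 was at -2.80 with adjusted p 0.0217, and Plac8 did not pass, at -0.61 with 0.0613. Both calls ended in the fit of these 2 groups alone, at 0.227 and 0.24. Fits of the list genes without EtOH 1 were chosen after seeing the data. In EtOH against PF they gave 1 higher and 7 lower of the 16 identity genes. Of the 12 signals and ligands 6 were higher and 1 lower, and of the 14 general macrophage genes 0 were higher and 3 lower. Of the 11 genes of recruited cells 4 were higher and 2 lower. These counts stand against 19.0% higher and 19.1% lower of all 13000 genes in that fit.

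Of the lists of other cells, set against 20.4% higher and 19.5% lower of all tested genes, 5 of 9 stellate cell genes were higher and 1 lower in EtOH against PF, 1 of 7 hepatocyte and 1 of 4 cholangiocyte genes were higher, and none of 4 neutrophil genes and 1 lymphocyte gene was called. Without EtOH 1 the stellate cell count was 3 higher and 1 lower of 9, where 19.0% of all genes were higher and 19.1% lower.

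**Figure D5:**
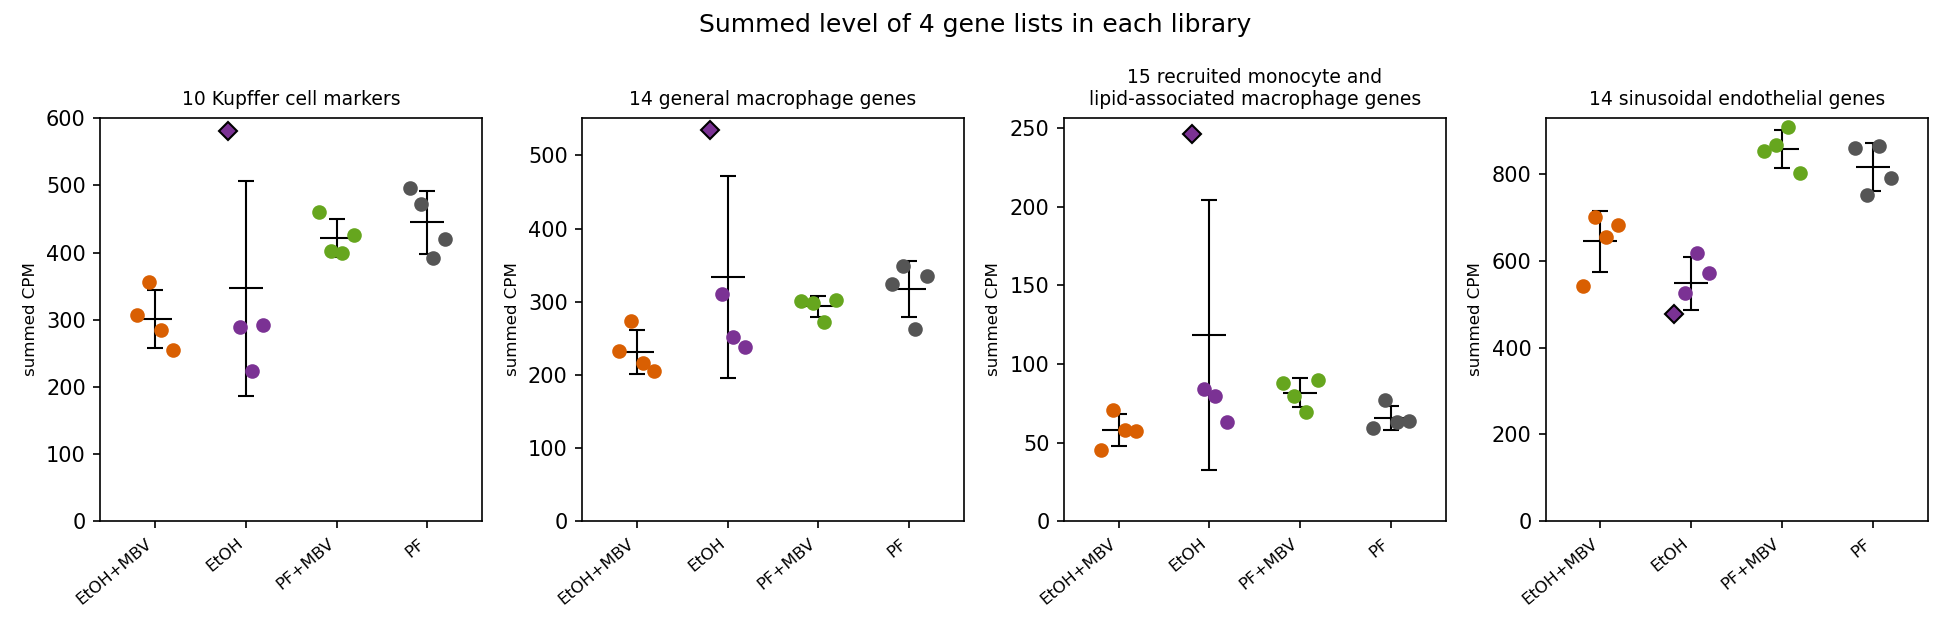
Summed CPM of 4 of the gene lists (vertical axes, linear from 0) in the 4 libraries of each group, with mean and SD and EtOH 1 as an outlined diamond. The lists shown are the Kupffer cell markers and the general macrophage, recruited monocyte and lipid-associated macrophage, and sinusoidal endothelial genes. EtOH 1 stands above all other libraries in the Kupffer cell, general macrophage and recruited monocyte sums, and at the bottom of its group in the endothelial sum.

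Within groups the 10 genes varied most in EtOH, with EtOH 1 included. Their median coefficient of variation was 17.3% in EtOH+MBV, 43.8% in EtOH, 9.31% in PF+MBV and 18.8% in PF. For all tested genes the median was 16.6% in EtOH+MBV, 20.3% in EtOH, 9.99% in PF+MBV and 14.2% in PF. In PF+MBV the spread of the 10 genes was close to that of all genes, and in EtOH it was larger. Over EtOH 2 to 4 the median was 21.7% for the 10 genes and 15.4% for all tested genes, with Clec4f at 8.40% and Timd4 at 1.28%. Marco had the widest range over the 16 libraries, 29.0-fold between PF 3 and EtOH 1, and Clec4f the narrowest, 1.99-fold between EtOH+MBV 4 and EtOH 1.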

How the data were processed

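The authors deposited 1 table per library with read counts per gene, unnormalized. Trimmomatic, STAR and mouse build mm10 are named in the submitters' processing notes, with versions and annotation not given in the sources used here. Of 3 count columns the unstranded one was used, since the stranded ones split reads nearly evenly (50.6% to 51.8% in one). Unmapped reads made up 11.6% to 19.9% of a library, and reads without a gene feature 9.40% to 10.9%. Rows that name no gene were left out.

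Genes were kept by filterByExpr (minimum count 10), libraries were scaled by TMM (factors 0.863 to 1.27), and edgeR 4.0.16 (quasi-likelihood; R 4.3.3) fitted a mean for each group with a spread per gene shared by the 16 libraries. Benjamini-Hochberg adjustment ran over the 12901 genes of each comparison, and an adjusted p under 0.05 was called. Standard errors are the log2 fold change over the root of the F statistic. Log2 CPM used a prior count of 2. Alternatives were limma 3.58.1, DESeq2 1.42.0, other scalings and filters, and libraries left out. The fit was tested on simulated data. Gene spans and exon lengths come from an annotation of GRCm38, and promoters from RefSeq. The 10 genes, the lists and the rule for names were chosen with earlier results of these data known. Named are all 10 genes, from other lists genes past the limit with the smallest p, signals and ligands, and the 5 genes most like Clec4f; Lyve1, Spi1, Spic, Irf8, Mmp12 between the diets, Maf between the diets and the untested monocyte genes were added after their values were seen. Some genes of the lists are not reported here.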

Additional observations from a re-analysis of the deposited data

Results flagged for a closer look

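Within 40 groups of 4 libraries (10 genes in 4 groups), 6 had a library far from the other 3 by Dixon's test at 95%. Chance flags about 1 in 20 groups where groups are independent, and here the 10 genes were read from the same libraries. In 3 of the 6 the library was EtOH 1: Clec4f at 138.62 CPM with 71.2 to 82.7 CPM in the other EtOH libraries, Timd4 at 8.567 CPM with 5.50 to 5.64 CPM, and Marco at 60.743 CPM with 5.37 to 12.1 CPM. Csf1r stood low in EtOH+MBV 4, at 27.203 CPM, with 37.7 to 39.3 CPM in the other EtOH+MBV libraries. Clec4f stood high in PF+MBV 1, at 119.5 CPM, with 106 to 108 CPM in the other PF+MBV libraries. Marco stood high in PF 2, at 6.2019 CPM, with 2.09 to 2.63 CPM in the other PF libraries, and without PF 2 its log2 fold change in EtOH against PF was 3.24.

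Cd163 differed between the diets in its MBV difference, by 1.1327 on the log2 scale with an edgeR adjusted p of 0.0298. On ethanol 3 of 4 EtOH libraries lay below all EtOH+MBV libraries, and on the pair-fed diet all PF+MBV libraries lay below all PF libraries.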

How the results depend on the processing

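Of the 10 genes in 5 contrasts, the alternatives of scaling, filter, test, fit and block kept direction and side of the threshold in 378 of 390 values, and leaving out a library in 415 of 500. With limma voom, Timd4 in EtOH against PF was 0.01, Vsig4 in EtOH+MBV against EtOH 0.03 and Vsig4 in the interaction 0.08. Replicate numbers are shared by the groups. Of 24 same-numbered pairs 3 deviated together with a correlation over 0.1 (range -0.124 to 0.170). Of 72 differently numbered pairs 12 did (range -0.243 to 0.327). The labels do not say whether the numbers pair the libraries, and weak correlations cannot decide it. With the numbers as a replicate block, EtOH+MBV against EtOH called 205 genes in place of 347 and EtOH against PF 4883 in place of 5137. In that fit Csf1r passed in EtOH against PF (edgeR adjusted p 0.0262), Marco in EtOH+MBV against EtOH was 0.03 and Vsig4 in the interaction 0.02. DESeq2 called 905 genes in EtOH+MBV against EtOH, 665 in PF+MBV against PF and 1113 in the interaction. A fit of only the compared groups called 0 genes in EtOH+MBV against EtOH with edgeR (1679 at an unadjusted p under 0.05). The same kind of fit called 1119 genes in PF+MBV against PF, 1 of the 10 (Cd163) among them. The cause of these shifts was not tested.

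Leaving out a library gave 8 to 1169 genes in EtOH+MBV against EtOH (347), 45 to 689 in PF+MBV against PF (230) and 168 to 1088 in the interaction (530). Of the 10 genes it gave 3 to 8 calls in EtOH against PF, 0 to 1 in EtOH+MBV against EtOH, 2 (without PF+MBV 1) to 8 in EtOH+MBV against PF+MBV and 0 to 1 in the interaction. Signs turned in EtOH against PF for Timd4 (-0.20 to 0.11) and Cd5l (-0.72 to 0.16). In EtOH+MBV against EtOH they turned for Clec4f (-0.33 to 0.03), Vsig4 (-0.42 to 0.38), Marco (-0.85 to 0.88), Cd5l (-0.84 to 0.05), Csf1r (-0.37 to 0.20), Mrc1 (-0.10 to 0.06) and Folr2 (-0.09 to 0.31). In PF+MBV against PF they turned for Folr2 (-0.13 to 0.13), Cd5l (-0.17 to 0.03) and Timd4 (-0.01 to 0.21). In the interaction they turned for Clec4f (-0.26 to 0.09), Vsig4 (-0.37 to 0.43), Cd5l (-0.77 to 0.11), Csf1r (-0.25 to 0.31), Folr2 (-0.10 to 0.29) and Mrc1 (-0.04 to 0.12). None of those values had passed the threshold. Marco in PF libraries rests on 39 to 99 counts.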
